A study of Mus musculus with 6 samples.

Results

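The results concern 10 genes of the blood vessel lining, measured in CD11c+ cells taken from the spleens of wild-type mice and mice hypomorphic for Atg16L1: Aplnr, Igfbp7, Pecam1, Cdh5, Kdr, Flt1, Tie1, Eng, Stab2 and Ets1. A probe set was taken as a member where the platform annotation gave exactly 1 of these symbols, which found all 10 genes, with 20 probe sets, among 12393 genes with 20379 single-gene probe sets. Several probe sets (2 to 4 each) read 6 of the genes, and 1 each read Pecam1, Kdr, Tie1 and Stab2. The wild-type group held 3 arrays and the hypomorph group 3. All mice were on the C57BL/6J background, untreated and 8 weeks of age, and the cells came from magnetic selection for CD11c, the integrin carried by dendritic cells. A hypomorphic allele keeps part of its function, and ATG16L1 helps to attach LC3-like proteins to autophagosome membranes. The sources used here do not give how the allele was made or in which cells it acts. The labels tie no array to a mouse of its own; p-values here rest on array-to-array spread only, part of which may be technical.

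Endothelial cells line vessels and, in the spleen, the open sinuses of the red pulp. VEGF acts on them through the receptor tyrosine kinases encoded by Kdr and Flt1, and the receptor-like kinase encoded by Tie1 works with the angiopoietin receptor TEK. Endoglin, encoded by Eng, is a co-receptor for ligands of the TGF-beta family, Aplnr encodes the G protein-coupled receptor for apelin, and Cdh5 and Pecam1 encode adhesion proteins of the endothelial junction. These cells do not belong to the CD11c+ population, but magnetic selection can leave some of them behind. Several member genes are also used by other spleen cells, such as Pecam1 by platelets and myeloid cells, Eng by macrophages and Ets1 by lymphocytes. In RNA of a mixed preparation, fewer cells of a type and less RNA per cell cannot be told apart.

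The arrays had close medians, from 5.66 to 5.72 on the deposited log2 scale. Atg16l1 itself stood at 7.05, 7.11 and 7.04 in wild type and 6.13, 5.84 and 6.11 in the hypomorph (log2 change -1.04, SE 0.0986, limma adjusted p = 0.00139). Control signals separated the genotypes too: 24 probe sets for poly-A spike-ins, added to the RNA before labelling, averaged 9.96, 9.53 and 8.95 in wild type and 7.90, 7.58 and 7.59 in the hypomorph (two-sided exact permutation p = 0.1, the smallest that 3 against 3 arrays allow). The hybridization controls (18 probe sets) and the 18S ribosomal RNA probe sets were also lower on all hypomorph arrays, with mean log2 differences of -1.02 and -0.67. Wild-type replicate 1 carries another number in its title than the other 5 arrays, and the labels do not say what that number stands for. The title of wild-type replicate 3 gives another array version. Wild-type replicate 2 stood apart in the endothelial genes: it was the highest of the 6 arrays for 12 of the 20 member probe sets, against 15.4% of all probe sets. It exceeded the mean of wild-type replicates 1 and 3 by a median of 0.52 over member probe sets, against -0.02 over all probe sets, so the changes of members are also given without it. Of the dendritic cell list, the CD11c gene Itgax was at 10.45, 10.20 and 10.30 in wild type and 10.01, 9.87 and 9.96 in the hypomorph. It fell by 0.37 on the log2 scale (adjusted p = 0.0351).

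Endothelial genes were lower in the hypomorph or did not pass the test. By limma's moderated test on all single-gene probe sets, with Benjamini-Hochberg adjustment and a threshold of 0.05, 6 of the 20 member probe sets fell, where 7.73% of all 20379 probe sets fell. In either direction 17.7% of all probe sets passed. The members and the other lists were chosen with earlier results of these data known. A count above such a share may therefore follow from the choice. The fallen member probe sets were both probe sets of Aplnr, 2 of the 3 for Igfbp7, the 1 for Kdr and 1 of the 2 for Eng. With limma 0 member probe sets rose (9.95% of all probe sets rose), and 1, for Pecam1, was higher at an unadjusted p under 0.05. The median log2 change over the 20 was -0.36, beside -0.04 over all probe sets, and 16 of them had a change below 0, as did 56.9% of all. In 9 the hypomorph arrays all lay below the wild-type arrays (20.8% of all probe sets), in 2 they all lay above (19.0% of all), and in the other 9 the groups overlapped. By the probe set of highest mean for each gene, 4 of the 10 genes fell and 0 rose with limma (1 higher and 5 lower at an unadjusted p under 0.05), where 8.47% of 12393 genes fell, 9.76% rose and 18.2% passed in all. On that footing the groups did not overlap for 5 lower genes (22.5% of all genes) and 1 higher gene (18.5%). Without any 1 hypomorph array 3 of the 6 calls were left, both of Aplnr and the brightest of Igfbp7. Calls became fewer over all probe sets too: 2.86%, 1.97% and 1.7% of them fell without hypomorph replicate 1, 2 and 3. With the poly-A signal as a covariate none of the 6 member calls was left, with 0 calls among all probe sets in that fit as well. At an unadjusted p under 0.05 by limma there were 1932 of all and 4 of the members. The poly-A signal itself separated the genotypes, so that fit could hardly tell the 2 apart.

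**Figure D1:**
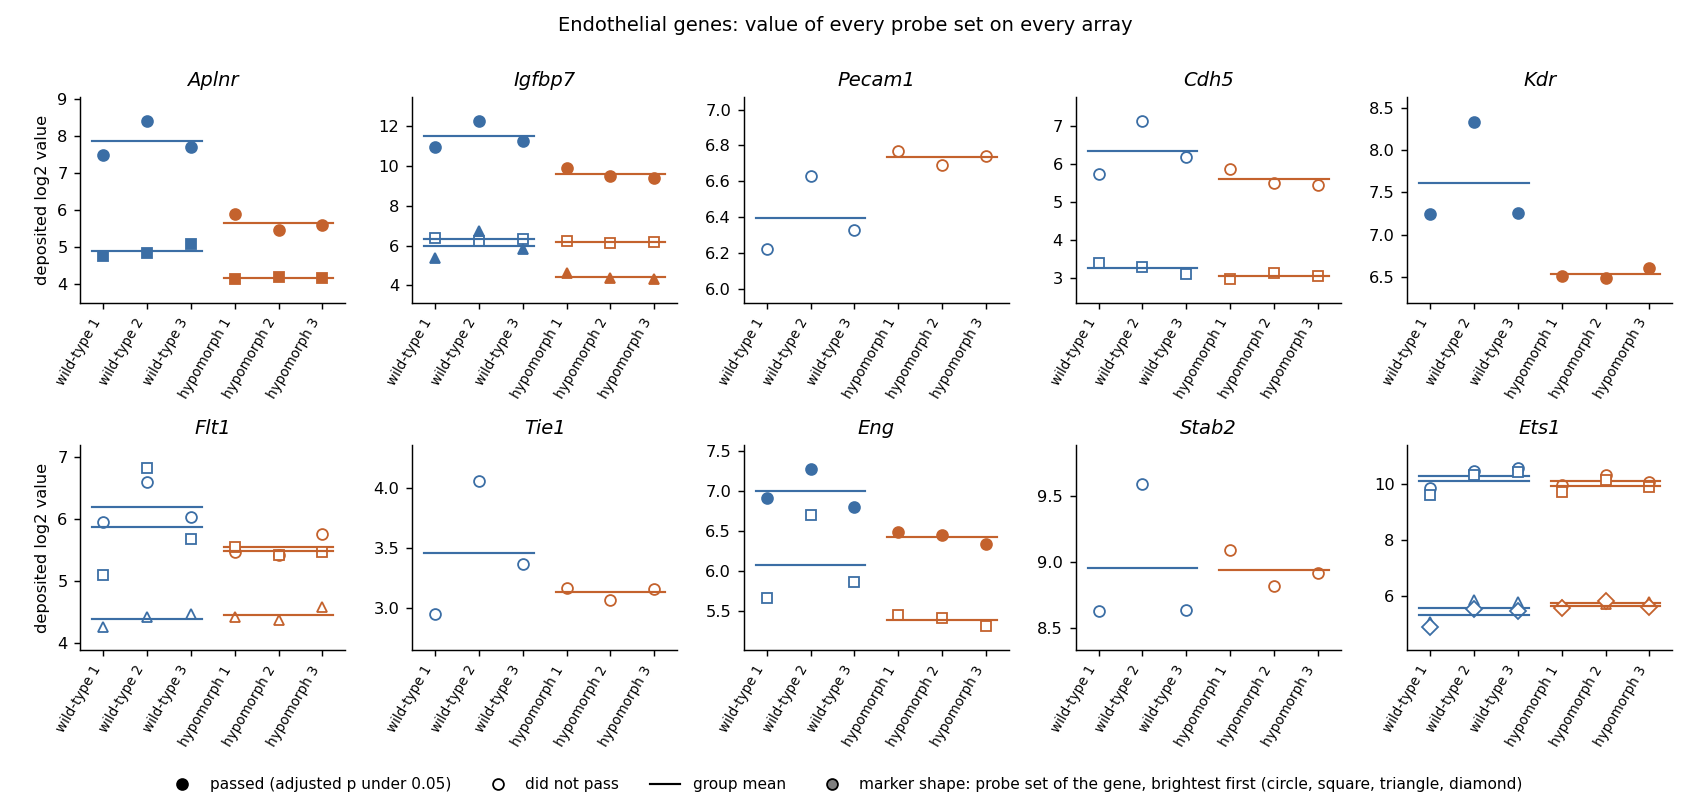
Deposited log2 value (vertical axis) of each probe set of the 10 endothelial genes on each of the 6 arrays (horizontal axis), wild type in blue and hypomorph in orange, with horizontal lines at group means and filled symbols for probe sets that passed. Wild-type replicate 2 is the highest array for 12 of the 20 probe sets, and in 9 of them all 3 hypomorph arrays lie below all wild-type arrays.

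The apelin receptor gene Aplnr (Entrez Gene 23796) had the largest change among the members. Its brighter probe set, 1438651_a_at, read 7.49, 8.41 and 7.71 in wild type and 5.90, 5.46 and 5.58 in the hypomorph. The highest hypomorph array lay well below the lowest wild-type array. It fell 4.65-fold (log2 change -2.22, SE 0.239, 95% interval -2.78 to -1.66, adjusted p = 0.00198). The dimmer probe set, 1423037_at, read 4.74, 4.83 and 5.07 in wild type and 4.12, 4.18 and 4.15 in the hypomorph. It fell as well, by less (log2 change -0.73, SE 0.102, adjusted p = 0.00519). Both calls held with any 1 array left out: the change of the brighter probe set ranged from -2.41 without wild-type replicate 1 to -1.95 without wild-type replicate 2, where that of the dimmer one was -0.75. With the poly-A signal as a covariate the 2 changes were -2.19 (SE 0.802, adjusted p = 0.502) and -1.297 (SE 0.214, adjusted p = 0.361). The gene of the ligand, Apln, was dim, between 3.75 and 4.20 on all arrays (log2 change 0.15, adjusted p = 0.41).

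Igfbp7 (Entrez Gene 29817) encodes a secreted protein that endothelial and stromal cells deposit around vessels. Its brightest probe set, 1423584_at, had a level at percentile 97.0 of all probe sets and read 10.96, 12.26 and 11.25 in wild type against 9.88, 9.47 and 9.41 in the hypomorph. All hypomorph arrays lay at least 1 log2 unit below all wild-type arrays. The gene fell 3.74-fold by this probe set (log2 change -1.90, SE 0.323, adjusted p = 0.00989), and the change was -1.52 without wild-type replicate 2. A dimmer probe set, 1423585_at, read 5.39, 6.75 and 5.81 in wild type and 4.60, 4.35 and 4.31 in the hypomorph. It fell 2.94-fold (adjusted p = 0.0177). The change was -1.18 without wild-type replicate 2, and the call was lost without hypomorph replicate 1, 2 or 3 (adjusted p = 0.0533, 0.0687 and 0.0718). The third, 1437804_at, hardly moved between arrays, lying from 6.14 to 6.36 on all 6, and did not pass (log2 change -0.14, adjusted p = 0.251; -0.17 without wild-type replicate 2). The 3 probe sets of this gene gave unequal changes, and their mean gave a log2 change of -1.20 (adjusted p = 0.0112).

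Of the VEGF receptor genes, Kdr fell and Flt1 gave mixed readings. Kdr (Entrez Gene 16542), which encodes VEGFR2, the main signalling receptor for VEGF in endothelium, read 7.25, 8.33 and 7.26 in wild type and 6.51, 6.49 and 6.61 in the hypomorph. Wild-type replicate 2 was more than 1 log2 unit above both other wild-type arrays, and these still lay above every hypomorph array. Kdr fell 2.11-fold (log2 change -1.08, SE 0.278, adjusted p = 0.0389), and the change was -0.72 without wild-type replicate 2, with a smaller spread (adjusted p = 0.00417). The call was lost without hypomorph replicate 1, 2 or 3 (adjusted p = 0.113, 0.12 and 0.104), with the replicate number as a block (0.054) and with trend and robust fitting (0.0507).

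Flt1 (Entrez Gene 14254) encodes VEGFR1, which binds VEGF tightly and also has a soluble form. Its brightest probe set, 1451756_at, read 5.94, 6.59 and 6.03 in wild type and 5.46, 5.42 and 5.76 in the hypomorph. The groups did not overlap, and the change of -0.64 (95% interval -1.08 to -0.21) narrowly missed the threshold (adjusted p = 0.0539). The call depended on the setting: adjusted p was 0.0447 without wild-type replicate 1, 0.0435 after quantile normalization and 0.0449 after centring on array medians, and it also passed with either filter on dim probe sets, trend and robust fitting or array weights. It did not pass without wild-type replicate 2 (log2 change -0.44, adjusted p = 0.0584), nor when wild-type replicate 3 or a hypomorph array was left out (from 0.0767 to 0.167), or with the replicate block (0.0904). The mean of the 3 probe sets of Flt1 gave a change of -0.32 (adjusted p = 0.311). The second, 1419300_at, spanned 5.09 to 6.81 within wild type and 5.42 to 5.54 in the hypomorph, so its change of -0.38 was within the wild-type spread, and it was 0.09 without wild-type replicate 2. The third, 1454037_a_at, stayed between 4.26 and 4.57 on all arrays (log2 change 0.07, 95% interval -0.15 to 0.30; 0.09 without wild-type replicate 2).

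Eng fell by 1 of its 2 probe sets, and Tie1 did not pass. Eng (Entrez Gene 13805) read 6.92, 7.28 and 6.8 in wild type and 6.49, 6.45 and 6.34 in the hypomorph by probe set 1417271_a_at. It fell 1.49-fold (log2 change -0.57, SE 0.131, adjusted p = 0.0264), and the change was -0.43 without wild-type replicate 2 (adjusted p = 0.0266). The call was lost without hypomorph replicate 1, 2 or 3 (adjusted p = 0.0714, 0.0866 and 0.1) and with the mean of the 2 probe sets (log2 change -0.63, adjusted p = 0.0556). The other probe set, 1432176_a_at, also had all hypomorph arrays, from 5.31 to 5.45, below all wild-type arrays, from 5.67 to 6.70. It did not pass (log2 change -0.68, adjusted p = 0.102), and its change was -0.37 without wild-type replicate 2. Tie1 (Entrez Gene 21846) was dim, at percentile 17.5 of all probe sets, and read 2.95, 4.06 and 3.37 in wild type and 3.17, 3.07 and 3.16 in the hypomorph. The groups overlapped, and the change was -0.33 (95% interval -0.92 to 0.27) with all arrays. It was -0.03 without wild-type replicate 2 and -0.58 without wild-type replicate 1 (adjusted p = 0.0979).

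**Figure D2:**
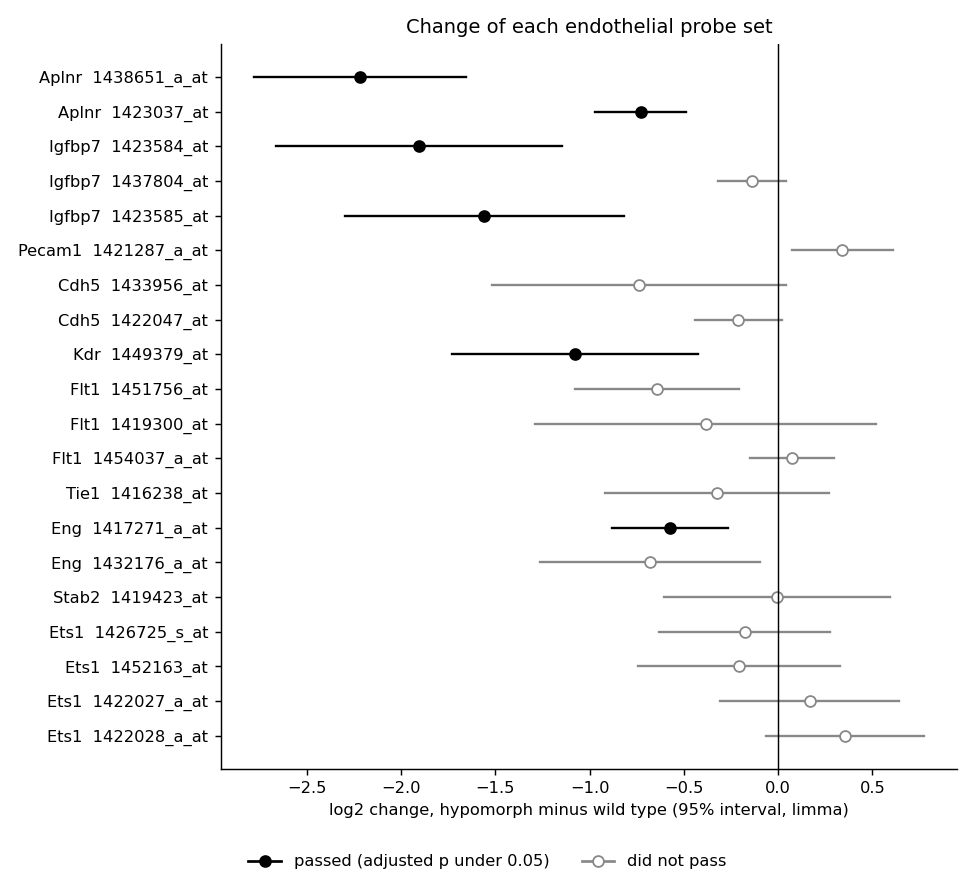
Log2 change from wild type to hypomorph (horizontal axis) of each of the 20 endothelial probe sets (rows), with unadjusted 95% intervals from limma, 3 arrays a group, and filled points for those that passed. The 6 filled points all lie below 0, from -2.22 for Aplnr to -0.57 for Eng, while the Pecam1 point lies at 0.34.

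Neither junction gene passed. Cdh5 (Entrez Gene 12562) encodes VE-cadherin, the cadherin that holds endothelial cells together. Its brighter probe set, 1433956_at, read 5.73, 7.14 and 6.18 in wild type and 5.87, 5.51 and 5.45 in the hypomorph. Wild-type replicate 1 fell inside the range of the hypomorph arrays, and the change of -0.74 did not pass (95% interval -1.52 to 0.04, adjusted p = 0.172). It was -0.34 without wild-type replicate 2 and -1.05 without wild-type replicate 1 (adjusted p = 0.0584). The dim probe set, 1422047_at, lay between 2.97 and 3.39 on all arrays (log2 change -0.21, adjusted p = 0.182; -0.20 without wild-type replicate 2).

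Pecam1 (Entrez Gene 18613), which encodes CD31, was higher on every hypomorph array, as was 1 of the 4 probe sets of Ets1 described further on. It read 6.22, 6.63 and 6.33 in wild type and 6.77, 6.69 and 6.74 in the hypomorph, without overlap. The change of 0.34 (95% interval 0.07 to 0.61) did not pass (adjusted p = 0.0832), but it was 0.46 and passed without wild-type replicate 2 (adjusted p = 0.0188). Of the red pulp macrophage list, 15 of 16 genes rose in the same arrays, where 9.76% of all genes rose. The mean level of that list ran from 8.81 to 9.41 in wild type and from 10.74 to 10.86 in the hypomorph. The mean of the platelet and megakaryocyte list ran from 5.84 to 6.11 in wild type and from 5.75 to 5.81 in the hypomorph. The part of either cell type in the Pecam1 reading was not tested.

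Stab2 (Entrez Gene 192188) encodes stabilin-2, the hyaluronan scavenger receptor of sinusoidal endothelium, and did not separate the genotypes. It read 8.63, 9.59 and 8.64 in wild type and 9.09, 8.82 and 8.92 in the hypomorph. Wild-type replicate 2 was the highest array and both other wild-type arrays were the lowest. The change was -0.01 (95% interval -0.60 to 0.59, adjusted p = 0.989), and it was 0.31 without wild-type replicate 2 (adjusted p = 0.0888). It was 0.05 and 0.00 without hypomorph replicate 2 or 3, so its sign turned with the array left out. The difference between its change and that of Kdr or Aplnr was not tested.

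Ets1 (Entrez Gene 23871), a transcription factor gene of endothelial cells that is also active in T, B and NK cells, had 2 bright and 2 dim probe sets, none of which passed. The brightest, 1426725_s_at, read 9.88, 10.49 and 10.57 in wild type and 9.99, 10.34 and 10.07 in the hypomorph. The other bright one, 1452163_at, read 9.61, 10.34 and 10.44 and then 9.73, 10.16 and 9.89. Wild-type replicate 1 was the lowest of the 6 arrays for all 4 probe sets of Ets1. The changes were -0.18 and -0.21 for the bright probe sets (adjusted p = 0.563 and 0.567) and 0.17 and 0.36 for the dim ones (adjusted p = 0.605 and 0.214). The last of these, 1422028_a_at, read 4.89, 5.53 and 5.47 in wild type and 5.55, 5.81 and 5.59 in the hypomorph, without overlap. The changes of the bright ones were -0.39 and -0.47 without wild-type replicate 1 (adjusted p = 0.0746 and 0.0666), -0.09 and -0.10 without wild-type replicate 2, and -0.05 and -0.06 without wild-type replicate 3. Those of the dim ones were 0.31 and 0.47 without wild-type replicate 2, and -0.08 and 0.15 without wild-type replicate 1. Wild-type replicate 1 was also lowest for the NK cell list, whose mean was 6.77 there and between 7.22 and 7.56 on the other arrays. It was not lowest for the T cell list (6.18, against 6.16 in hypomorph replicate 2). Nor was it for the B cell list (8.40, against 7.86 to 8.32 in the hypomorph). The part of NK, T and B cells in the Ets1 readings was not tested.

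Promoters are shown for the genes that fell and had an entry in the RefSeq promoter table (build GRCm38.p6). The ETS factors, of which ETS1 is 1, bind many endothelial promoters. The letters searched, GGAAG, are 1 form of their site, and other forms were neither marked nor counted. Of the 10 member genes 6 had an entry, and so did 3 of the 4 genes that fell: Igfbp7, Kdr and Eng. Each line gives the 250 bases before the annotated start, 5′ to 3′ along the gene, with matches to GGAAG on either strand in capitals (CTTCC where the match is on the other strand). The windows are chr5:77408046-77408295 on the minus strand for Igfbp7, chr5:75978456-75978705 on the minus strand for Kdr and chr2:32646345-32646594 on the plus strand for Eng.
Igfbp7: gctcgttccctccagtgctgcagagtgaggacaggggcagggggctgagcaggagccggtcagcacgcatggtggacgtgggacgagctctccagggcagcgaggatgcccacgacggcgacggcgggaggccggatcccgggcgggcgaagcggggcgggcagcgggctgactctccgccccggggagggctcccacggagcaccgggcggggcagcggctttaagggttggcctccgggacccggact
Kdr: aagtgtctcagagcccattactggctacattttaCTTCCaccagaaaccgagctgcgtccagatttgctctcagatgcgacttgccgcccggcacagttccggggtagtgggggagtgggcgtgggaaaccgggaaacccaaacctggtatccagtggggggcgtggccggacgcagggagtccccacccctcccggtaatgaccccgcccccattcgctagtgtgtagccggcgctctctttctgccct
Eng: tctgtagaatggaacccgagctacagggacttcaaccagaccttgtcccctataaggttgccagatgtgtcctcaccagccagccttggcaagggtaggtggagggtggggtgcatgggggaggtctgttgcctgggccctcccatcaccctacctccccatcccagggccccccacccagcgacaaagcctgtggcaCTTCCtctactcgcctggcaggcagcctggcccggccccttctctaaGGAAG
The window of Igfbp7 held 0 matches, that of Kdr 1 and that of Eng 2. The windows of Flt1, Tie1 and Stab2, which did not pass, held 3, 6 and 1. Of 32851 promoter windows of this length 64.1% held at least 1 match, so most promoters share this feature. Neither the GATA motif AGATAA (9.99% of windows) nor the SOX motif ACAAT (27.7%) had a match in any of these 6 windows. No match says only that these letters are not in these windows.

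The genes with the array pattern closest to each fallen member were then found. Likeness was the root mean square difference of log2 values over the 6 arrays, after each gene was centred on its own mean, over 12393 genes at the probe set of highest mean. Closest to Aplnr was Igfbp7, itself a member (0.205), then the matrix protein gene Sparc (0.314) and Plvap (0.32), which encodes the protein of endothelial fenestral diaphragms. Closest to Igfbp7 were Sparc (0.13), Coch (0.141) and Plvap (0.155), and closest to Kdr were the endothelial adhesion receptor gene Adgrl4 (0.079), Ldb2 and Ushbp1 (both 0.1). Those nearest to Eng were Kctd17 (0.045), the smooth muscle actin gene Acta2 (0.051) and Notch1 (0.058). The neighbours were chosen for this likeness, so a peak in wild-type replicate 2 and lower values in the hypomorph follow from the choice.

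Other pan-endothelial genes fell or did not pass. Of 38 listed, 32 were measured; 12 fell and with limma 0 rose (0 higher at an unadjusted p under 0.05), where 8.47% of all genes fell. The median log2 change was -0.68, beside -0.05 over all genes. Plvap read 8.33, 10.06 and 8.80 in wild type and 7.35, 7.22 and 7.12 in the hypomorph, a 3.57-fold fall (adjusted p = 0.0217). Icam2, an endothelial and leukocyte adhesion gene, fell 1.75-fold (8.21, 8.58 and 8.20 to 7.45, 7.63 and 7.49, adjusted p = 0.00689). Tm4sf1 fell 2.97-fold and Sparcl1 2.72-fold. The other 8 that fell, named after their values were seen, were Cav1, Cldn5, Ramp2, Adgrl4, Cd93, Robo4, Cd34 and Mcam, with log2 changes from -1.51 for Cav1 to -0.65 for Mcam. Classical markers that did not pass included Tek (-0.99, adjusted p = 0.104), Esam (-0.40, adjusted p = 0.0626) and Vwf, which read 6.31, 6.42 and 6.11 in wild type and 6.48, 6.46 and 6.62 in the hypomorph (0.24, adjusted p = 0.153); these, too, were picked with their values known. As a whole the list was highest in wild-type replicate 2, with a mean of 6.32 against 5.59 and 5.71 in the other wild-type arrays and 5.12 to 5.23 in the hypomorph. Without that array 14 fell, without wild-type replicate 3 7 fell, and without hypomorph replicate 1, 2 or 3 the count was 3, 1 and 1. In the fits without a hypomorph array 2.86%, 1.97% and 1.7% of all probe sets fell, against 7.73% with all arrays.

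**Figure D3:**
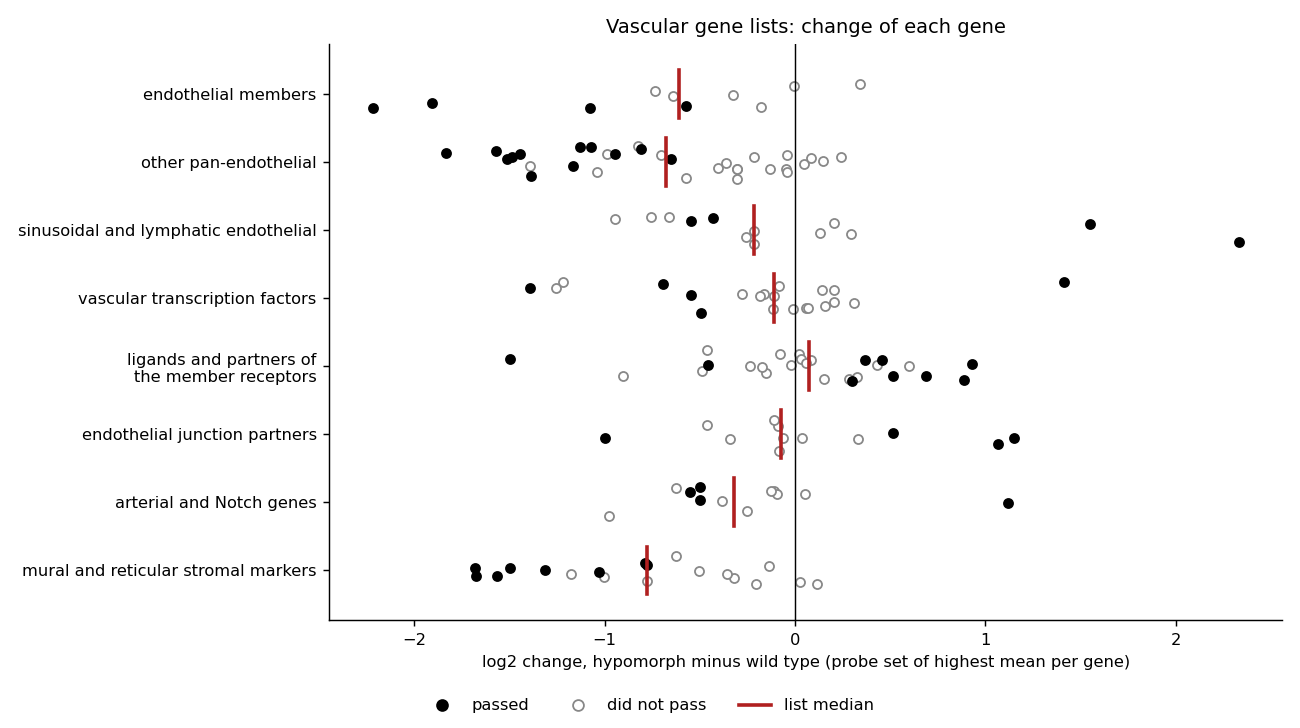
Log2 change from wild type to hypomorph (horizontal axis) of each gene, by the probe set of highest mean, in the endothelial members and 7 related lists (rows), with filled points for genes that passed and red bars at list medians. The medians of the members (-0.61), the other pan-endothelial genes (-0.68) and the mural and reticular genes (-0.78) lie below 0, while that of the receptor partners lies at 0.07.

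Of all 12393 genes 9.76% rose and 8.47% fell, and the counts here are to be read beside these shares. The sinusoidal and lymphatic list had a few calls in each direction. Of 13 genes measured, 2 rose and 2 fell (median -0.22): Mrc1, the mannose receptor gene, rose from 8.64, 9.57 and 9.32 to 11.59, 11.49 and 11.45, and Clec1b, which encodes the podoplanin receptor of platelets and some myeloid cells, rose 2.92-fold. Mrc1 is also a macrophage gene, and 15 of 16 red pulp macrophage genes rose in the same arrays; their part in this reading was not tested. The inhibitory Fc receptor gene Fcgr2b fell 1.46-fold, and the hyaluronan receptor gene Lyve1, which was dim, fell 1.35-fold. Among 21 vascular transcription factor genes 1 rose and 4 fell (median -0.11). Klf2, a flow-responsive factor that leukocytes also use, rose 2.66-fold, and Sox17, an arterial factor, fell 2.63-fold from 4.58, 5.56 and 4.46 to 3.63, 3.31 and 3.47. Gata2 fell 1.61-fold, Mef2c 1.46-fold and Sox7 1.41-fold. Of the B cell list 6 of 11 genes fell in the same arrays, and the part of B cells in the Fcgr2b and Mef2c readings was not tested. The endothelial ETS genes Erg and Fli1 did not pass, with changes of -0.16 and 0.20 (adjusted p = 0.414 and 0.415), and were named after their values were seen.

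Of 27 ligands, co-receptors and partners of the member receptors, 26 were measured, 7 rose (9.76% of all genes rose) and 2 fell (8.47% of all genes fell), with a median of 0.07. The 4 risen genes of smallest p were the TGF-beta receptor genes Tgfbr1 (8.53, 8.80 and 8.82 to 9.67, 9.64 and 9.63), Acvrl1 (1.85-fold) and Tgfbr2 (1.61-fold), and the ligand gene Tgfb1 (1.37-fold). Id3, which encodes an inhibitor of helix-loop-helix factors and is a target of BMP signalling, fell 2.82-fold from 6.94, 7.93 and 7.32 to 5.95, 5.95 and 5.80. The VEGF co-receptor gene Nrp1 rose 1.43-fold and its relative Nrp2 fell 1.38-fold, Nrp1 being named after its value was seen. Smad1 (0.30) and Smad7 (0.37), a signal transducer and an inhibitor of the TGF-beta family, were the other genes that rose, while Smad5 (-0.49), Smad4 (0.09), Smad6 (0.06), Id1 (-0.46), Bmpr2 (-0.24), Tgfb3 (0.43) and the endoglin ligand genes Gdf2 (-0.08) and Bmp10 (-0.15) did not pass; these log2 changes were also picked with their values known. None of the VEGF and angiopoietin ligand genes measured (Vegfa, Vegfb, Vegfc, Vegfd, Pgf, Angpt1, Angpt2 and Angpt4) passed with limma.

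Among 12 junction partner genes 3 rose and 1 fell (median -0.07), where 9.76% of all genes rose and 8.47% fell. Jup, the plakoglobin gene, rose 2.22-fold, F11r, which encodes the adhesion protein JAM-A, 2.095-fold and the p120 catenin gene Ctnnd1 1.43-fold, while Jam3 fell 1.998-fold. Of 12 genes on the arterial and Notch list 1 rose, the chemokine receptor gene Cxcr4 (2.17-fold), which leukocytes also express. On that list 3 fell, Notch1 (1.47-fold), Ephb4 (1.42-fold), a venous receptor gene, and the connexin gene Gja5 (1.41-fold), with a list median of -0.32. Over all 212 other list genes 43 fell, and without hypomorph replicate 1, 2 or 3 the count was 18, 13 and 9. The share of all probe sets that fell was 7.73% with all arrays and 2.86%, 1.97% and 1.7% in those fits.

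Of 21 mural and reticular genes, which mark the stroma around vessels, 19 were measured; 8 fell (8.47% of all genes fell) and with limma 0 rose (0 higher at an unadjusted p under 0.05), with a median of -0.78. Sparc fell 3.19-fold, the collagen gene Col1a2 2.82-fold from 8.07, 9.19 and 8.19 to 7.37, 6.92 and 6.68, the fibronectin gene Fn1 1.73-fold and the pericyte gene Rgs5 1.71-fold. Genes that did not pass, picked with their values known, included Pdgfrb (-1.18), Col3a1 (-1.005) and Tagln (-0.78). Acta2 (-0.50), Des (-0.36), Cspg4 (-0.14), Myh11 (0.02) and Lum (0.11), picked likewise, did not pass either. For 13 of the 19 measured genes all hypomorph arrays lay below all wild-type arrays (22.5% of all genes), and for 0 they all lay above (18.5%). The mean of this list was highest in wild-type replicate 2 (7.15, against 6.41 and 6.48 in the other wild-type arrays) and ran from 5.72 to 6.04 in the hypomorph. Without wild-type replicate 2 the count was again 8, and it was 5, 2 and 1 without hypomorph replicate 1, 2 and 3. Without these hypomorph arrays 2.86%, 1.97% and 1.7% of all probe sets fell, against 7.73% with all arrays. The part of stromal cells in the endothelial readings was not tested.

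Some markers of other cell types differed between the genotypes as well, where 9.76% of all genes rose and 8.47% fell. B cell genes were lower, with 6 of 11 fallen and 0 risen by limma (0 higher at an unadjusted p under 0.05), such as Cd22 (1.67-fold) and Cd79a (1.73-fold); their mean level ran from 8.40 to 8.77 in wild type and from 7.86 to 8.32 in the hypomorph. Among the 14 T cell genes Cd8b1 rose (1.94-fold) and with limma 0 fell (0 lower at an unadjusted p under 0.05), and of 11 NK cell genes 0 passed (2 lower and 0 higher at an unadjusted p under 0.05). Of 10 platelet and megakaryocyte genes Clec1b rose and the platelet chemokine genes Ppbp (1.98-fold) and Pf4 (1.62-fold) fell. Of 16 dendritic cell genes 3 rose, Id2, Ccr9 and Xcr1, and 3 fell, Ciita, Zbtb46 and Itgax. Poly-A spike-ins were lower by 1.79 on the log2 scale in the hypomorph. The part of these cell types and controls in the endothelial readings was not tested. The poly-A signal separated the genotypes, so the covariate fit given above could hardly tell its part from that of genotype.

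**Figure D4:**
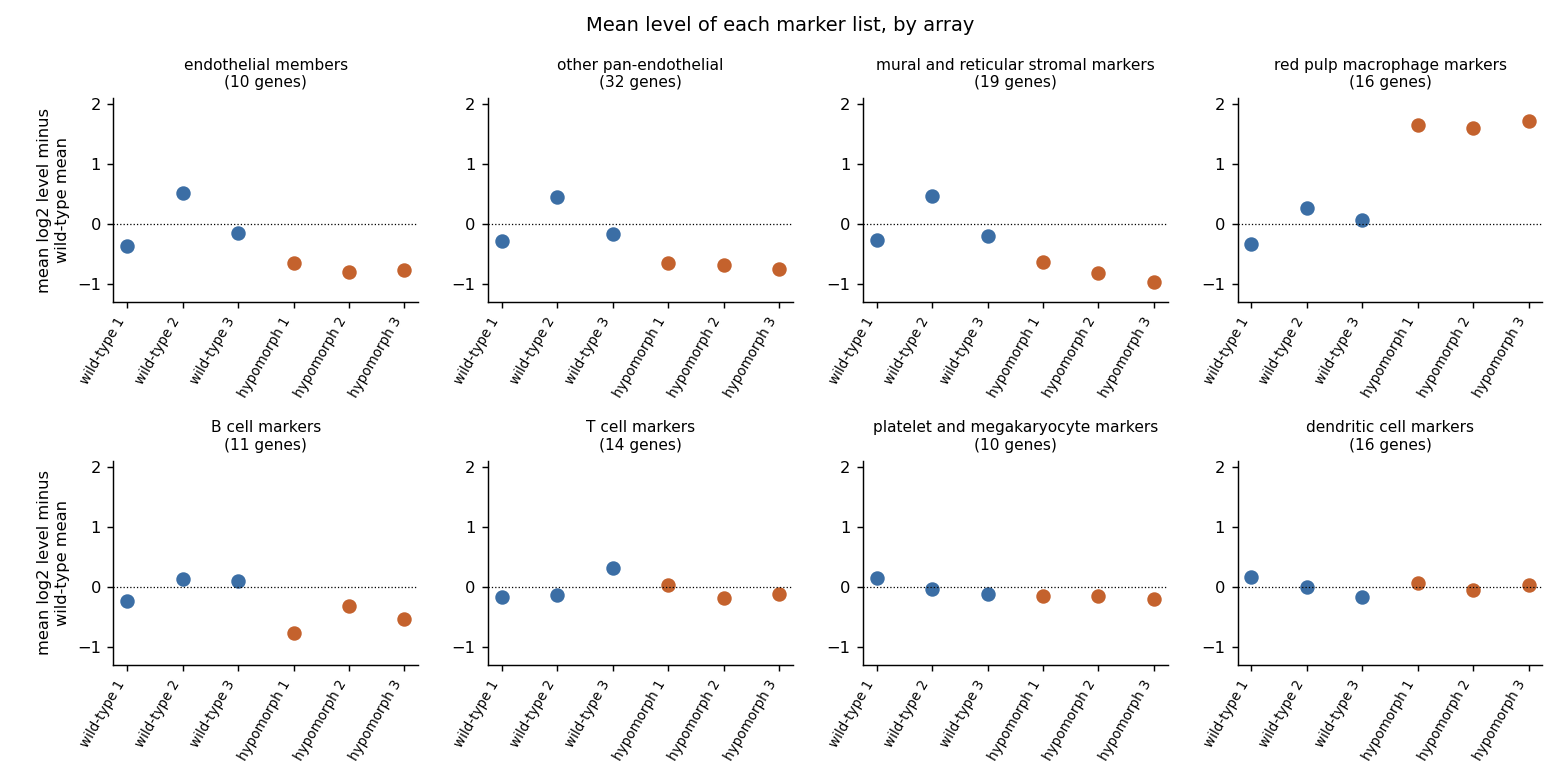
Mean log2 level of 8 marker lists on each array, minus the mean of the 3 wild-type arrays (vertical axis), wild type in blue and hypomorph in orange. The endothelial and stromal lists peak in wild-type replicate 2 and are lower in all hypomorph arrays. The B cell and the platelet and megakaryocyte lists are also lower in all hypomorph arrays. The macrophage list is higher in all hypomorph arrays, and the T cell and dendritic cell lists overlap between the groups.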

How the data were processed

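The authors deposited 1 log2 expression value per probe set for each of 6 Affymetrix mouse expression arrays; per the submitters' processing notes they used Affymetrix Power Tools. The log base was inferred from the range of the values, and normalization between arrays from their close medians and quartiles. For background correction and summarization the method is not given in the sources used here. Arrays have no read depth; their number limits the precision.

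Of 22690 probe sets, 1 had no value, 64 were controls, 691 named several genes and 1555 had none listed; the 20379 that named 1 gene were tested with limma 3.58.1 in R 4.3.3 (lmFit, eBayes, two-sided, no covariate, no filter). Gene IDs of 20350 were found in the RefSeq table. Rose and fell mean an adjusted p under 0.05 over all of them, and 95% intervals are unadjusted. In simulated data of the 20379 probe sets, 67, 67 and 66 were given log2 changes of 0.5, 1 and 2. The test recovered 19.4%, 70.1% and 93.9% of these. The simulation used the same spread for both groups and gave 128 calls, where the data gave 3604. These shares therefore do not carry over directly to the members. List genes were read by the probe set of highest mean; each list's up to 4 called genes of smallest p in each direction, and the 3 nearest genes of each fallen member, were named by rule. The members and the 13 other lists were chosen with earlier results of these data known. Python 3.11.15 and matplotlib 3.10.9 were used for tables and plots. Alternatives: 1 or averaged probe sets per gene, 2 filters on dim probe sets, 2 rescalings, trend and robust fitting, array weights, replicate block, poly-A covariate, a minimum of 1.5-fold, and leaving out each array.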

Additional observations from a re-analysis of the deposited data

How the results depend on the processing

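The limit common to all results is 3 arrays a group, with wider wild-type than hypomorph spread in 19 of the 20 member probe sets; dim probe sets (Tie1 and the second of Cdh5 lie below the lower quartile) have little room to fall. Of the 20379 probe sets 3604 passed. The counts were 2260 with 1 probe set per gene and 2247 with averaged probe sets, where fewer features were tested, 1612 at a change of at least 1.5-fold, 0 with the poly-A covariate (limma; 1932 at an unadjusted p under 0.05), and from 1279 to 3544 when 1 array was left out. With the poly-A covariate, which itself separated the genotypes, the median standard error was 0.295 instead of 0.107. The 6 fallen member probe sets became 3 of 10 genes with averaged probe sets, 0 with the poly-A covariate (limma; 4 lower at an unadjusted p under 0.05) and 3 to 7 without 1 array. The 0 risen became 1, Pecam1, with the filter at the median level, and 0 to 1 without 1 array. Of 212 other list genes 43 fell and 33 rose; with the poly-A covariate these were 0 and 0 (limma), and without 1 array 9 to 55 fell.

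The labels number the replicates 1 to 3 in each genotype. Same-numbered arrays deviated together only in part (correlations 0.159, 0.019 and 0.1 over probe sets, and hypomorph replicate 2 lay closer to wild-type replicate 3), so the samples were taken to share only a number. With the replicate block 2214 probe sets passed, and 5 of the 6 member calls were kept, the exception being Kdr (adjusted p = 0.054).

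Among the members, signs turned for changes that had not passed. With the poly-A covariate these were Cdh5 1422047_at (0.136), Flt1 1454037_a_at (-0.277), Stab2 (0.275), and Ets1 1422027_a_at (-0.938) and 1422028_a_at (-0.603); averaging the Ets1 probe sets gave 0.034. Without 1 array the ranges were -0.769 to 0.092 for Flt1 1419300_at, -0.169 to 0.313 for Stab2 and -0.084 to 0.311 for Ets1 1422027_a_at. Among the 48 list genes named by rule, all of which had passed, the poly-A covariate turned the sign of Cd8b1 (-0.066), Ciita (0.064), Cxcr4 (-0.419), Pf4 (0.584), Ppbp (0.492) and Tgfbr2 (-0.079). The cause of these changes was not tested. Quantile normalization and centring on array medians kept the sign of all 20 member changes, and each added Flt1 1451756_at to the calls.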

Other observations

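The values of 2 vascular genes outside the members are given here, chosen after their values were seen. Vegfa, the gene of the ligand of KDR and FLT1, read 4.50 in wild-type replicate 1 and between 6.19 and 6.39 on the other 5 arrays. Ets2, a relative of Ets1, read 7.95 in wild-type replicate 1 and from 8.87 to 9.64 elsewhere. Between the genotypes neither passed with limma (Vegfa log2 change 0.60, adjusted p = 0.404, and Ets2 0.06, adjusted p = 0.935). The low values of wild-type replicate 1 themselves were not tested.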
